A study of Thunnus thynnus with 30 samples.

Results

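Of the respiratory chain genes that animals keep in mitochondrial DNA, 2 were read out in this count table of bluefin tuna larvae, MT-ND5 and mt-co1. They were found by name among 7295 rows, with capitals and the prefix MT or MT- disregarded; the rule accepts 20 names for the mitochondrially encoded subunits of complex I, complex III, complex IV and the ATP synthase. Both were tested. The names the rule accepts beyond these were not analysed here, and no coordinates are given for either row because neither name is listed among the symbols of the reference gene table.

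The mitochondrial respiratory chain passes electrons from food to oxygen and stores the energy as a proton gradient that drives ATP synthesis. Most of its subunits are encoded in the nucleus and imported, but a few core subunits are still encoded in the small circular mitochondrial genome, which is transcribed inside the organelle as long precursors that are cut into single messengers. MT-ND5 encodes a proton-pumping membrane subunit of complex I (NADH dehydrogenase), and mt-co1 encodes the catalytic subunit of complex IV (cytochrome c oxidase), where oxygen is reduced. DHA is a long-chain omega-3 fatty acid found in membrane lipids.

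Whole wild-type larvae of Thunnus thynnus (Atlantic bluefin tuna) were sequenced to compare feeding on rotifers, small live prey, that had been enriched to different DHA contents. The prey carried 2.0 mg DHA per g of dry weight in the low DHA groups, 3.6 mg in the medium and 10.9 mg in the high DHA groups, and each treatment had 3 tanks. Larvae were sampled at 5, 10 and 15 days after hatching (dph). The 9 combinations of age and feeding had 3 libraries each, but high DHA at 5 dph had only replicates 2 and 3, so 26 libraries were analysed. All groups received enriched rotifers, so no group was without DHA, and all libraries came from whole bodies: fewer cells of a type and less RNA per cell cannot be told apart. Of 8 marker lists for muscle, liver, intestine, pancreas, neurons, ionocytes and blood, 61 rows were present and 0 were at 0 in any group. How many larvae went into a library is not given in the sources used here, so p-values measure the spread between these libraries, which may be partly technical.

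Libraries held 12805866 to 19169404 counts. Levels are given as CPM, counts scaled to a common library size by TMM (a trimmed mean of log ratios), with the SD between libraries. Differences were tested with edgeR's quasi-likelihood F-test, a two-sided test, and p-values were adjusted by Benjamini and Hochberg's method across the 7292 rows tested; a row with an adjusted p under 0.05 is called. Every log2 fold change is given with its standard error. Libraries also differed in the balance of long and short messengers, measured by a length score, the mean log2 CPM of 32 rows for very long transcripts minus that of 76 abundant ribosomal protein rows. Its group means ran from -6.46 to -4.79, and the lowest scaling factors, 0.808 and 0.861, belonged to replicate 2 of medium DHA at 5 dph and replicate 2 of low DHA at 10 dph. Medium and low DHA libraries at 5 dph did not overlap in the length score, nor did low DHA libraries of 5 and 10 dph. Between such groups, a fit that includes the score cannot decide between the score and the group. A call lost or gained there, or a sign turned, is therefore description only.

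MT-ND5 and mt-co1 were the most counted rows of the whole table. MT-ND5 ranked 1 and mt-co1 ranked 2 in each of the 26 libraries. MT-ND5 held 5.34% of all counts on average (range 4.56% to 5.997% over libraries) and mt-co1 held 4.26% (3.66% to 5.29%), together 8.31% to 10.9% of a library. The next rows were acta1, a skeletal muscle actin, at 1.65%, and apoa1, a lipoprotein component made in liver and gut, at 1.42%. The levels of the 2 rows are counts and were not divided by gene length, so they do not rank the 2 messengers by number of molecules.

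Within groups both rows varied somewhat less than the median row. From the lowest to the highest library, CPM differed 1.58-fold for MT-ND5 and 1.68-fold for mt-co1. The biological coefficient of variation within groups was 9.12% for MT-ND5 and 8.89% for mt-co1, against a median of 10.6% over all rows. Of all rows, 31.9% had a lower value than MT-ND5 and 29.2% a lower value than mt-co1. The highest library for both rows was replicate 2 of medium DHA at 5 dph, which also had the lowest scaling factor.

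**Figure D1:**
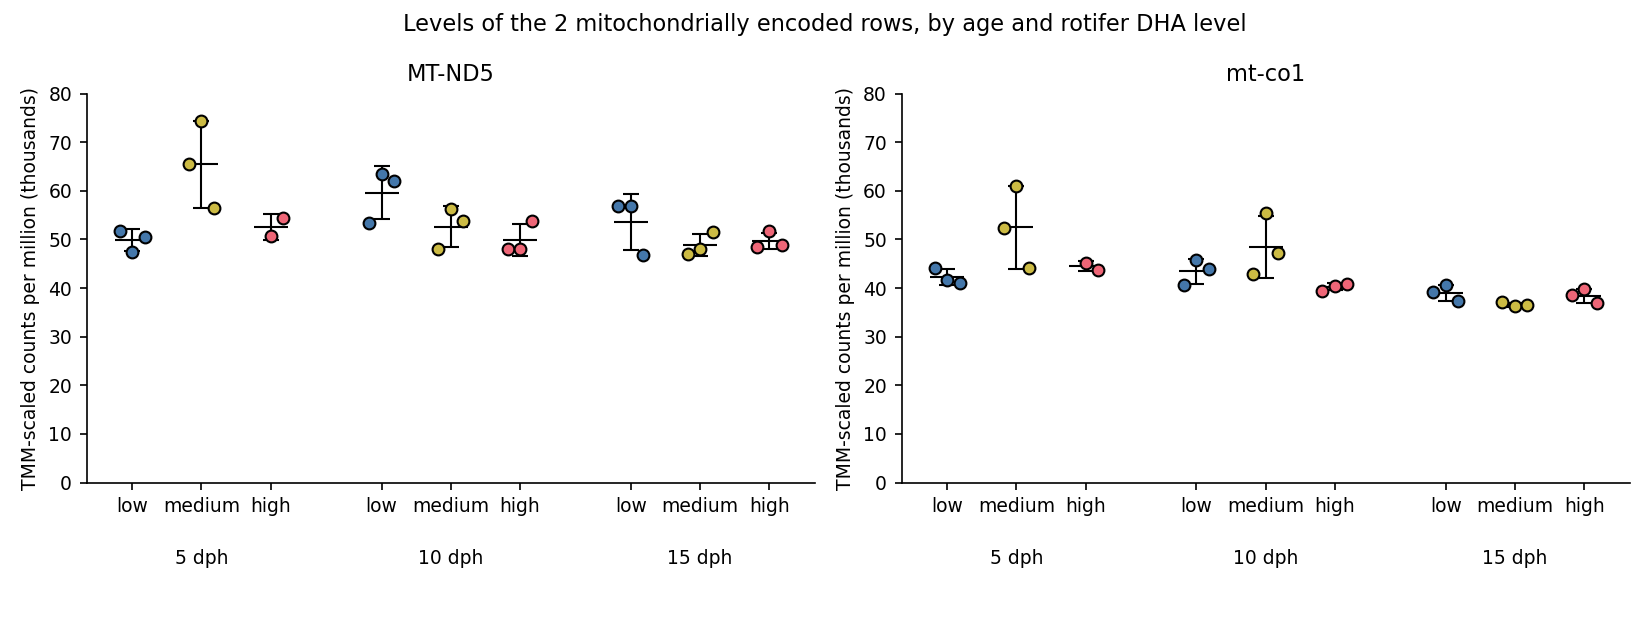
CPM (TMM scaled; axis in kilo-CPM) of MT-ND5 and mt-co1 in each of the 26 libraries, by age in dph and DHA level. Points are libraries and bars are group means with the SD. Medium DHA at 5 dph has the highest mean for both rows, 65402 CPM for MT-ND5 and 52462 CPM for mt-co1, and also the widest spread.

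With TMM scaling MT-ND5, the complex I subunit, was higher in medium than in low DHA larvae at 5 dph. It then changed in opposite directions between 5 and 10 dph in those feeding groups. The rise in low DHA depended on the scaling and was 0.03 on the log2 scale with library totals only. At 5 dph MT-ND5 stood at 51683, 47428 and 50588 CPM in the low DHA libraries. The medium DHA libraries had 65581, 74256 and 56369 CPM. The high DHA libraries had 50682 and 54412 CPM. All 3 medium DHA libraries were above all libraries of the other feeding groups of that age, while high and low DHA overlapped.

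For medium against low DHA at 5 dph, group means of MT-ND5 were 65402 ± 8945 CPM in medium DHA and 49899.6 ± 2209 CPM in low DHA (SD, n = 3 each). The log2 fold change was 0.39 ± 0.11 (adjusted p = 0.0123, edgeR). As a share of all counts, with no TMM scaling, MT-ND5 held 5.87% ± 0.18 in medium DHA against 5.30% ± 0.16 in low DHA, again with no overlap. Both mitochondrially encoded rows were called higher in this comparison, where 16.7% of all tested rows were called higher and 27.2% in either direction. The call rested on single libraries: without medium DHA replicate 2 the log2 fold change of MT-ND5 was 0.28 (adjusted p = 0.123), and without low DHA replicate 2 it was 0.35 (adjusted p = 0.0559). With libraries scaled by their totals alone it was 0.15 (adjusted p = 0.0995). Set against the median of all rows it was then 0.33, and with TMM scaling 0.35. A change of scaling shifts all rows nearly alike, so values set against the median come out close under any scaling, here and below. They do not tell which scaling is right. With the compared groups only it was 0.34 (adjusted p = 0.17), and when the fit included the length score it was 0.13 (adjusted p = 0.907). The score ran from -6.33 to -5.47 in medium and from -4.98 to -4.65 in low DHA. Without overlap between them, that fit cannot decide between the score and the feeding group. Of 13 alternative fits 8 called MT-ND5.

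High against medium DHA at 5 dph gave a log2 fold change of -0.32 ± 0.12 for MT-ND5 (95% interval -0.56 to -0.07), with no overlap between libraries, and did not pass edgeR's test (adjusted p = 0.174). Neither member was called there, 1 of 2 had an unadjusted p under 0.05, and 0% of all rows were called. DESeq2 called MT-ND5 (adjusted p = 0.0428), and edgeR called it without medium DHA replicate 3 (log2 fold change -0.41, adjusted p = 0.0245). How many of all rows were called in those fits is not given here.

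At 10 dph MT-ND5 followed another order. Low DHA libraries stood at 53395, 63437 and 62075 CPM. Medium DHA libraries had 48022, 56158 and 53699.6 CPM. High DHA libraries had 47979.6, 47987 and 53733 CPM. Low DHA had the highest mean; 2 medium DHA libraries and 1 high DHA library lay above its lowest library. High against low DHA at 10 dph gave -0.26 ± 0.11 (95% interval -0.48 to -0.04, adjusted p = 0.0814, edgeR), while 23.8% of all rows were called. DESeq2 called it at an adjusted p of 0.0398, and it was the 1 member of 2 with an unadjusted p under 0.05. edgeR called it without replicate 2 (-0.30, adjusted p = 0.0252) or 3 (-0.26, adjusted p = 0.0423) of medium DHA at 5 dph, or without replicate 1 of low DHA at 10 dph (-0.33, adjusted p = 0.0331). The number of all rows called by DESeq2 and in these smaller fits is not given here. Medium against low DHA at that age gave -0.18 ± 0.11 (adjusted p = 0.197), where 34.9% of all rows were called.

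Between 5 and 10 dph MT-ND5 rose in low DHA larvae, with 59636 ± 5447 CPM at 10 dph and 49899.6 ± 2209 CPM at 5 dph (SD, n = 3 each). The log2 fold change was 0.26 ± 0.11 (adjusted p = 0.0412, edgeR), and TMM-scaled libraries of the 2 ages did not overlap. As a share of all counts they did, at 5.40% ± 0.21 at 10 dph and 5.30% ± 0.16 at 5 dph. MT-ND5 was the 1 member called, where 30.3% of all rows were called higher and 59.2% in either direction. In medium DHA larvae it fell, with 52627 ± 4172 CPM at 10 dph against 65402 ± 8945 CPM at 5 dph, and again without overlap. Here the log2 fold change was -0.31 ± 0.11 (adjusted p = 0.0265), and 19.1% of all rows were called lower and 34.1% in either direction. In high DHA larvae the change was -0.07 ± 0.12 (adjusted p = 0.706, 95% interval -0.32 to 0.17), where 16.4% of all rows were called.

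Neither of these age changes held in every fit. Leaving out 1 library at a time moved the change in low DHA between 0.22 and 0.33 and ended the call for 8 of 26 libraries, which were each of the 3 low DHA libraries of 5 dph, low DHA replicates 2 and 3 and medium DHA replicate 3 of 10 dph, and high DHA replicates 1 and 2 of 15 dph. The change in medium DHA ran from -0.41 to -0.21 and was lost without replicate 1 (adjusted p = 0.0596) or 2 (adjusted p = 0.162) of 5 dph and without replicate 1 (adjusted p = 0.105) or 3 (adjusted p = 0.0676) of 10 dph. With the length score as a covariate the change in low DHA was -0.12. That fit cannot decide between the score and age there, since the libraries of the 2 ages did not overlap in the score. Scaled by library totals, the change in low DHA was 0.03 (adjusted p = 0.753), or 0.21 against the median of all rows, and with TMM scaling 0.22. In that fit mt-co1 was the member called, and lower (-0.19, adjusted p = 0.0161), with the median of all rows also at -0.19. The share of all rows called in that fit is not given here. With DHA level and replicate number together as a block, taken to stand for a tank over the ages, the change of MT-ND5 in low DHA was 0.26 and not called (adjusted p = 0.0583); whether a number marks the same tank at each age is not given in the sources used here.

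The difference between those changes was tested directly, in a comparison added after these changes had been seen in the same data. The change of MT-ND5 from 5 to 10 dph in medium DHA, minus that in low DHA, was -0.57 ± 0.15 on the log2 scale (95% interval -0.88 to -0.26, adjusted p = 0.00376, edgeR). Of all rows 20.5% were called lower in this test and 43.3% in either direction. For mt-co1 the same difference was -0.15 ± 0.15 (95% interval -0.46 to 0.15, adjusted p = 0.414). The call for MT-ND5 was kept when any 1 of the 26 libraries was left out. It was lost with library totals only (-0.22, adjusted p = 0.0765), a scaling that moved the median of all rows by 0.33 in this test; against that median the difference was -0.46, and with TMM scaling -0.47. It was also lost in a fit that included the length score (-0.05, adjusted p = 0.956) and without replicates 1 and 2 of medium DHA at 5 dph (-0.40, adjusted p = 0.0582). The corresponding test for high and low DHA gave -0.33 ± 0.16 for MT-ND5 (adjusted p = 0.14), where 18.1% of all rows were called, and -0.18 ± 0.15 for mt-co1. There the unadjusted p of MT-ND5 was under 0.05, and edgeR and DESeq2 called 0 of the 2 members. The high against low DHA difference between 10 and 15 dph was 0.15 ± 0.15 for MT-ND5 (adjusted p = 0.611) and 0.09 ± 0.15 for mt-co1 (adjusted p = 0.789), with 3.44% of all rows called and 0 members at an unadjusted p under 0.05 or by DESeq2.

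At 15 dph the feeding groups overlapped in MT-ND5. Low DHA libraries stood at 56769, 56868 and 46878 CPM. Medium DHA libraries had 47014, 48104 and 51491 CPM. High DHA libraries had 48493, 51657 and 48936 CPM. The ranges of all 3 groups overlapped, and replicate 3 of low DHA was the lowest of all 26 libraries. High against low DHA gave -0.11 ± 0.11 (adjusted p = 0.609; 7.46% of all rows called), medium against low -0.13 ± 0.11 (adjusted p = 0.784; 0.0686% called) and high against medium 0.02 ± 0.11 (adjusted p = 0.898; 16.9% called), all from edgeR. From 10 to 15 dph MT-ND5 was not called in any feeding group, with changes of -0.16 ± 0.11 with low DHA, -0.11 ± 0.11 with medium DHA and -0.01 ± 0.11 with high DHA.

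Over the 9 groups, MT-ND5 means ran from 65402 CPM in medium DHA at 5 dph through 59636 CPM in low DHA at 10 dph and 53505 CPM in low DHA at 15 dph to 48870 CPM in medium DHA at 15 dph. Each group's range of libraries overlapped with that of the next group in this order. Low DHA at 5 dph and high DHA at 10 dph were nearly equal, at 49899.6 and 49899.7 CPM.

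mt-co1, the complex IV subunit, was lower at 15 than at 10 dph in medium DHA larvae, where the change was called in all 14 alternative fits. In the other feeding groups its direction depended on the scaling. In medium DHA its libraries stood at 37071, 36294 and 36434 CPM at 15 dph. At 10 dph they stood at 42839, 55359.5 and 47137 CPM. All 15 dph libraries were below all 10 dph libraries.

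The means of mt-co1 in medium DHA were 36599.8 ± 414 CPM at 15 dph and 48445 ± 6362 CPM at 10 dph (SD, n = 3 each), a log2 fold change of -0.40 ± 0.10 (95% interval -0.62 to -0.19, adjusted p = 0.00478, edgeR). It was 1 of 2 members called, where 15.6% of all rows were called lower and 32.8% in either direction. As a share of counts it held 3.77% ± 0.09 at 15 dph against 4.73% ± 0.55 at 10 dph. All 14 alternative fits called it, with log2 fold changes from -0.41 to -0.33 and adjusted p from 0.000267 to 0.0112. It was also called after leaving out any of the 26 libraries, with changes from -0.49 to -0.30. MT-ND5 changed by -0.11 ± 0.11 in the same larvae (adjusted p = 0.452).

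In the other feeding groups mt-co1 had smaller estimated changes between those ages with TMM scaling, and neither was called. In high DHA it had 38513, 39768 and 36946 CPM at 15 dph and 39436, 40409.5 and 40846.5 CPM at 10 dph. In low DHA it had 39136, 40563.5 and 37317 CPM at 15 dph and 40621, 45838 and 43820.4 CPM at 10 dph. In high DHA, replicate 2 of 15 dph lay within the range of the 10 dph libraries, and in low DHA the 15 dph libraries lay just below all 10 dph libraries. As a share of all counts, with no TMM scaling, the 15 dph libraries lay above all 10 dph libraries in both groups. High DHA held 4.29% ± 0.22 at 15 dph and 3.83% ± 0.11 at 10 dph. Low DHA held 4.09% ± 0.12 at 15 dph and 3.94% ± 0.01 at 10 dph. With TMM scaling the log2 fold changes were -0.07 ± 0.10 in high DHA (adjusted p = 0.636; 38.9% of all rows called) and -0.15 ± 0.10 in low DHA (adjusted p = 0.231; 42.8% called). With library totals only they were 0.16 in high DHA (adjusted p = 0.0446, edgeR) and 0.055 in low DHA (adjusted p = 0.494). That scaling moved the median of all rows by 0.23 in high and 0.21 in low DHA. The share of all rows called with it is not given here. Whether the medium DHA change differs from these was not tested.

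Averaged over the feeding groups, mt-co1 fell by 0.21 on the log2 scale from 10 to 15 dph, with a standard error of 0.06 (adjusted p = 0.00496, edgeR). The mean of the group means was 38004.7 CPM at 15 dph and 44034.1 CPM at 10 dph. It was again 1 of 2 members called, with 25.9% of all rows called lower and 57.7% in either direction, and MT-ND5 stood at -0.09 ± 0.06 (adjusted p = 0.214). The call held after leaving out any 1 library. It was lost with library totals only (-0.04, adjusted p = 0.376), a scaling that moved the median of all rows by 0.17, and with the length score as a covariate (-0.06, adjusted p = 0.47). Set against the median of all rows, the change was -0.25 under both scalings. From 5 to 10 dph, averaged over feeding groups, neither row was called (MT-ND5 -0.04 ± 0.06 and mt-co1 -0.07 ± 0.06; 58% of all rows called).

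At 5 dph mt-co1 was higher in medium than in low DHA larvae, though with overlap. Low DHA libraries had 44039, 41743 and 41050.4 CPM. Medium DHA libraries had 52283, 61067 and 44035 CPM. High DHA libraries had 45198 and 43749.5 CPM. Replicate 3 of medium DHA lay just under the highest low DHA library and the other two lay above all other libraries of that age.

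The medium DHA mean of mt-co1 was 52462 ± 8517 CPM and the low DHA mean 42277 ± 1564 CPM (SD, n = 3 each), a log2 fold change of 0.31 ± 0.10 (adjusted p = 0.0303, edgeR). As a share of counts the 2 groups overlapped, at 4.70% ± 0.26 in medium and 4.49% ± 0.13 in low DHA. The call was lost without medium DHA replicate 2 (0.18, adjusted p = 0.262), and also without 7 others of the 26 libraries, with changes between 0.29 and 0.34: medium DHA replicate 1 and all 3 low DHA libraries of 5 dph, medium DHA replicate 3 of 10 dph, and high DHA replicates 1 and 2 of 15 dph. With library totals only it was 0.07 (adjusted p = 0.445), or 0.25 against the median of all rows, and with TMM scaling 0.27. It was 0.04 when the fit included the length score (adjusted p = 0.972) and 0.26 with the compared groups only (adjusted p = 0.285), and 6 of 13 alternative fits called it. High against medium DHA gave -0.24 ± 0.12 (adjusted p = 0.26) and was called without medium DHA replicate 3 (-0.35, adjusted p = 0.0336), and high against low DHA 0.07 ± 0.12 for mt-co1 and 0.07 ± 0.12 for MT-ND5, where 0.0823% of all rows were called. How many of all rows were called without that replicate is not given here.

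At 10 dph the order of the feeding groups in mt-co1 was not that of MT-ND5. The mean was 43426 ± 2631 CPM with low DHA, 48445 ± 6362 CPM with medium DHA and 40231 ± 722 CPM with high DHA (SD, n = 3 each). All 3 medium DHA libraries were above all high DHA libraries. High against medium DHA gave -0.27 ± 0.10 (95% interval -0.48 to -0.05), which did not pass edgeR's test (adjusted p = 0.211), in a comparison with 0.137% of all rows called; its unadjusted p was under 0.05, and DESeq2 called 0 of the 2 members. Medium against low DHA gave 0.16 ± 0.10 (adjusted p = 0.247) and high against low -0.11 ± 0.10 (adjusted p = 0.467).

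With TMM scaling all 3 feeding groups had low mt-co1 at 15 dph, at 39005 ± 1627 CPM with low DHA, 36599.8 ± 414 CPM with medium DHA and 38409 ± 1414 CPM with high DHA. They filled the last 3 places in the order of the 9 group means, below 40231 CPM in high DHA at 10 dph. The pair of neighbours in that order whose libraries did not overlap was low DHA at 5 dph, at 42277 CPM, and high DHA at 10 dph. By share of all counts, with no TMM scaling, only medium DHA was low at 15 dph, at 3.77%. High DHA at 4.29% and low DHA at 4.09% then lay above low DHA (3.94%) and high DHA (3.83%) at 10 dph. Averaged over ages, high against low DHA gave -0.02 ± 0.06 for mt-co1 (adjusted p = 0.889) and -0.10 ± 0.06 for MT-ND5 (adjusted p = 0.395, edgeR), with 6.23% of all rows called. In the comparisons at 15 dph, in that average, in medium against low DHA at 10 dph, in high against low DHA at 5 dph and in the uncalled changes with age, edgeR called 0 members, 0 had an unadjusted p under 0.05, and DESeq2 called 0.

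**Figure D2:**
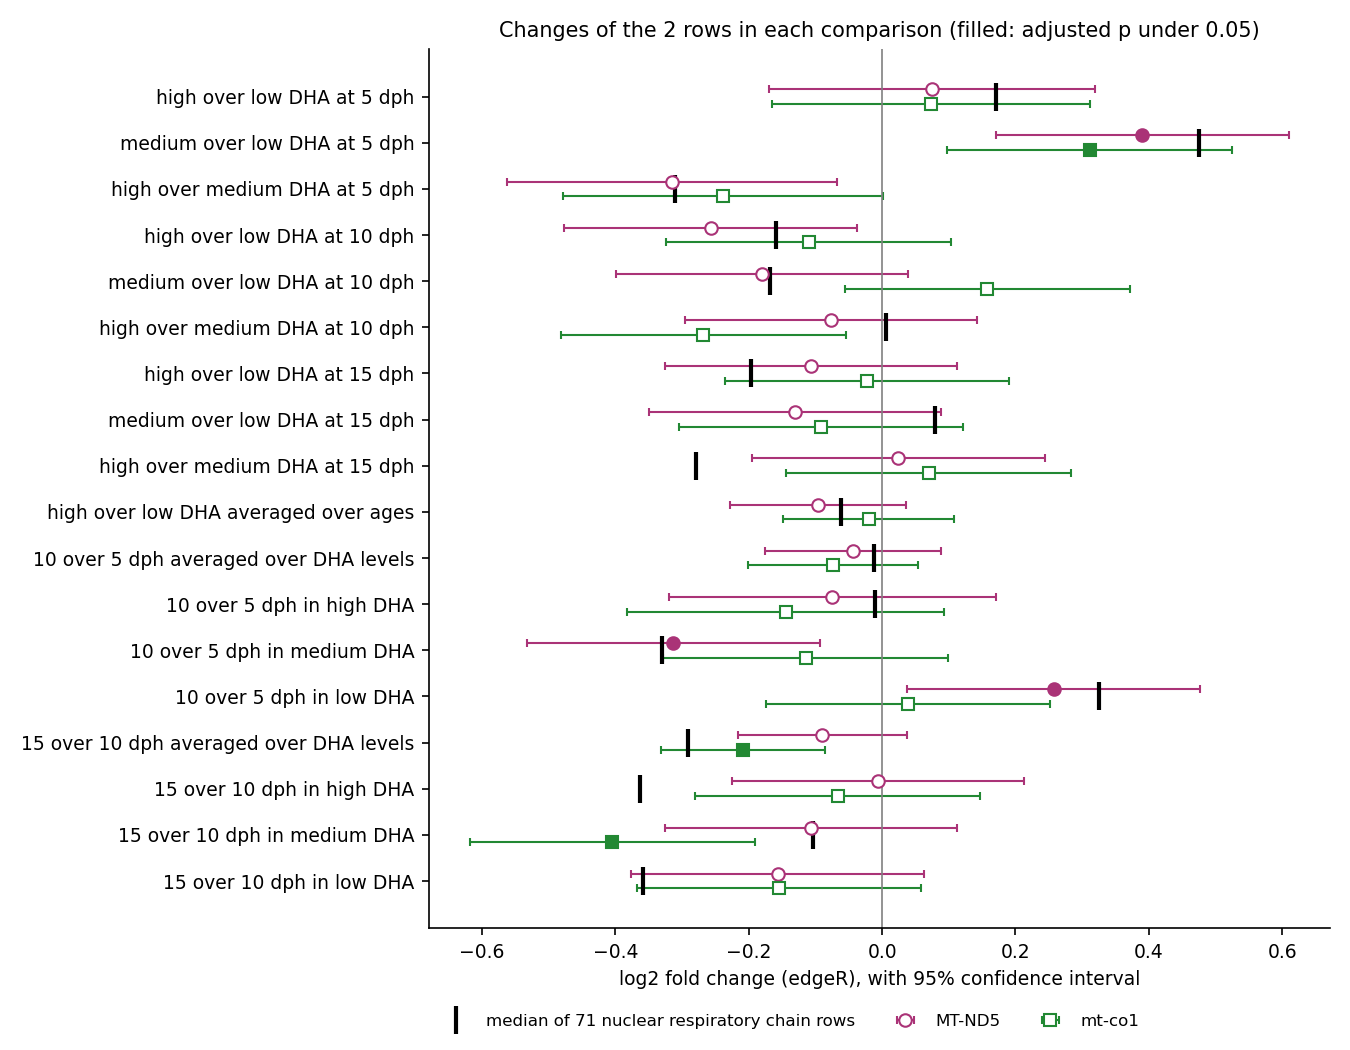
Log2 fold changes of MT-ND5 and mt-co1 in each comparison, with 95% intervals from edgeR; filled points passed an adjusted p of 0.05, and black ticks mark the median of the 71 nuclear encoded respiratory chain rows. The change of mt-co1 from 10 to 15 dph in medium DHA, at -0.40, is the largest between groups of 1 feeding level, and intervals for high against low DHA at 5 and 15 dph span 0.

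The balance between both rows differed between groups, which is given as a description with no test. The ratio of MT-ND5 to mt-co1 counts within a library needs no scaling between libraries, though it is not a ratio of molecules. At 10 dph it averaged 1.37 ± 0.05 with low DHA, 1.09 ± 0.07 with medium DHA and 1.24 ± 0.07 with high DHA (SD, n = 3 each). The medium DHA libraries, from 1.01 to 1.14, lay below all low DHA libraries, from 1.31 to 1.42, and below all high DHA libraries, from 1.19 to 1.32. At 5 dph the ratio was 1.14 to 1.23 with low DHA, 1.22 to 1.28 with medium DHA and 1.12 to 1.24 with high DHA. At 15 dph it was 1.37 ± 0.10 with low DHA, 1.34 ± 0.07 with medium DHA and 1.29 ± 0.03 with high DHA, with overlap among all 3.

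**Figure D3:**
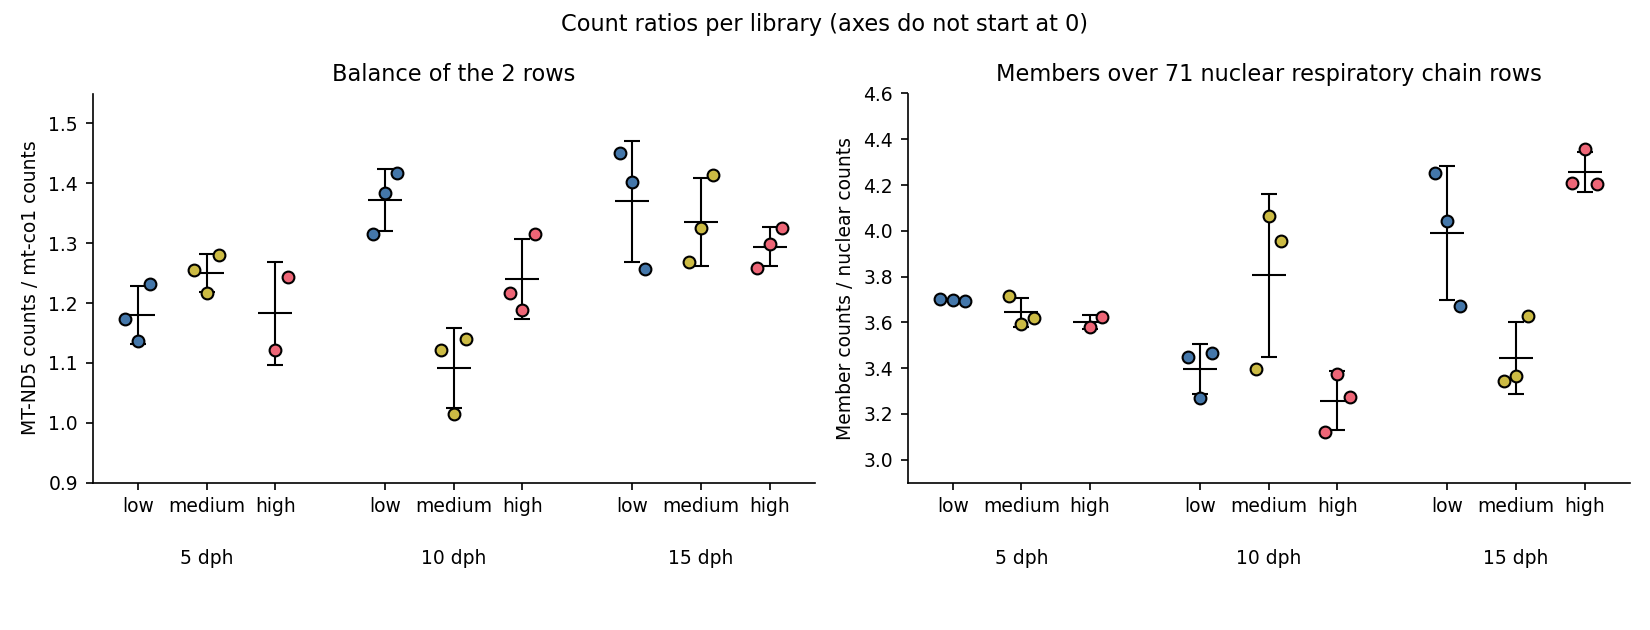
Ratio of MT-ND5 to mt-co1 counts and ratio of both rows' summed counts to those of 71 nuclear encoded respiratory chain rows, for each library by age in dph and DHA level; bars are group means with the SD, and the axes do not start at 0. At 10 dph the medium DHA libraries have the lowest first ratio, 1.01 to 1.14, and at 15 dph the high DHA libraries have a second ratio of 4.203 to 4.36.

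The nuclear encoded subunits, 71 rows of the respiratory chain and ATP synthase, gave a wider frame for these changes. In medium against low DHA at 5 dph, 68 of 71 were called higher and 0 lower, with a median log2 fold change of 0.48; over all rows 1220 were called higher and 760 lower, with a median of 0.04. Complex I subunits NDUFS5 (0.69 ± 0.13), NDUFA7 (0.55 ± 0.10) and NDUFA13 (0.62 ± 0.12) and the complex IV subunit Cox7c (0.64 ± 0.12) had the smallest p. The list's summed CPM ran from 27730.2 to 37658 in medium DHA and from 24106 to 25862 in low DHA. Without medium DHA replicate 2, 0 of 71 were called (median 0.31), and with the length score as a covariate 0 of 71 (median 0.13). In those fits the mitochondrially encoded rows lost their calls too. The loss without medium DHA replicate 2 was not particular to the respiratory chain. There 0 of 76 abundant ribosomal protein rows and 0 of 32 very long transcripts were called. With the length score in the fit 0 of them were called too. The score is made from these same rows, so their loss in that fit is no measure for the respiratory chain. The 8 marker lists had 0 rows called in either fit as well. How many of all rows were called in these fits is not given here.

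Other values moved with that comparison. The length score was -5.92 ± 0.43 in medium and -4.79 ± 0.17 in low DHA at 5 dph, all 76 abundant ribosomal protein rows were called higher (median 0.60), and 17 of 32 rows for very long transcripts were called lower (median -0.56). Of 9 neuron markers 7 were called lower, with a summed level of 528 to 827 CPM in medium and 987 to 1039 CPM in low DHA and none at 0. Of 7 fast muscle markers 3 were called higher, with sums of 29078 to 37901 CPM in medium and 27204 to 28013 CPM in low DHA. Of 14 slow muscle and heart markers 3 were called higher, with sums of 2486 to 3095 CPM in medium and 2116 to 2151 CPM in low DHA. Calls were also made for 1 of 6 liver and 1 of 8 exocrine pancreas markers, higher, and for 1 erythrocyte marker of 4 in each direction. For intestine and ionocytes 0 were called. The part of these in the result was not tested beyond the fit with the length score.

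The nuclear list was also looked at between 5 and 10 dph. In low DHA 50 of 71 were called higher and 2 lower at 10 dph (median 0.33; all rows 2210 higher and 2107 lower, median 0.04), led by the complex IV subunit COX7B (0.62 ± 0.12) and the ATP synthase subunit ATP5MC3 (0.46 ± 0.09). In medium DHA 0 were called higher and 50 lower (median -0.33; all rows 1095 higher and 1393 lower, median -0.01), led by atp5if1b, an inhibitor of the ATP synthase (-0.92 ± 0.15), and NDUFS5 (-0.76 ± 0.13). Without replicate 2 of medium DHA at 5 dph, 11 of 71 were called lower there. The length score was -6.46 ± 0.68 at 10 dph and -4.79 ± 0.17 at 5 dph in low DHA. In the fit that included this score, 0 of 71 were called higher and 3 lower in low DHA, and 10 lower in medium DHA. How many of all rows were called in these alternative fits is not given here.

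Other lists also had calls between these ages. In low DHA 72 of 76 abundant ribosomal protein rows were called higher at 10 dph, 26 of 32 very long transcripts were called lower and 1 higher, and all 9 neuron markers were called lower, with sums of 334 to 574 CPM at 10 dph and 987 to 1039 CPM at 5 dph. Muscle, liver and gut markers had calls upward there: 6 of 7 for fast muscle (34192 to 38129 CPM at 10 dph and 27204 to 28013 CPM at 5 dph), 8 of 14 for slow muscle and heart with 2 lower, 3 of 6 for liver, 4 of 9 for intestine, and 4 of 8 for exocrine pancreas with 2 lower. In medium DHA 41 of 76 ribosomal protein rows were called lower and 3 of 32 very long transcripts higher with 2 lower. Of the slow muscle and heart markers 7 of 14 were called lower and 1 higher in medium DHA (1987 to 2293 CPM at 10 dph and 2486 to 3095 CPM at 5 dph), and of the fast muscle markers 4 of 7 were called higher, with sums of 28476 to 34892 CPM at 10 dph and 29078 to 37901 CPM at 5 dph that overlapped. A further 41 tested rows with ribosomal protein names but under 20 CPM on average were listed to watch for reads of rotifer prey. Of these 40 were called lower in low DHA (14.8 to 23.6 CPM at 10 dph and 107 to 149 CPM at 5 dph) and 39 in medium DHA (40.8 to 63.5 CPM at 10 dph and 65.4 to 204 CPM at 5 dph). The part of these lists in the result was not tested beyond the fit with the length score.

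From 10 to 15 dph in medium DHA, where mt-co1 was lower, 4 of 71 nuclear rows were called lower and 0 higher (median -0.10; all rows 1256 higher and 1135 lower, median -0.01). They were sdha (-0.52 ± 0.08) and sdhb (-0.44 ± 0.11), the catalytic and iron-sulfur subunits of complex II, atp5if1b (-0.58 ± 0.15), and ATP5PF, a stalk subunit of the ATP synthase (-0.33 ± 0.10). None of the called rows belonged to complex I or complex IV. The length score differed little, -5.30 ± 0.27 at 15 dph and -5.32 ± 0.21 at 10 dph. Calls were made for 0 of 76 abundant ribosomal protein rows, 0 of 7 fast muscle markers and 0 of 9 neuron markers. Their medians were -0.24, 0.08 and -0.24. The ribosomal protein rows summed to 136702 to 142979 CPM at 15 dph and 155818 to 175284 CPM at 10 dph, without overlap. With the length score in the fit, 47 of these 76 rows were called lower, beside 8 of 71 nuclear rows and 3 of 9 neuron markers. In that fit 10 of 32 very long transcripts were called lower and 2 higher. Of the other lists, 3 of 6 liver markers were called higher (median 0.30; 25304.5 to 26918 CPM at 15 dph and 21873 to 29072.5 CPM at 10 dph). Exocrine pancreas had 4 of 8 markers called lower and 1 higher (median -0.32; 8373 to 10299 CPM at 15 dph and 9346 to 11637 CPM at 10 dph). Calls were also made for 2 of 14 slow muscle and heart markers and 1 of 9 intestine markers, all lower, for 1 of 4 ionocyte markers, higher, and for 2 very long transcripts in each direction. The 41 rows listed for rotifer prey summed to 11.5 to 15.6 CPM at 15 dph and 40.8 to 63.5 CPM at 10 dph, and 39 of them were called lower. The part of these lists in the result was not tested.

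Averaged over feeding groups, 66 of 71 nuclear rows were called lower at 15 than at 10 dph and 0 higher (median -0.29; all rows 2317 higher and 1891 lower, median 0.04). NDUFS5 (-0.71 ± 0.07), sdha (-0.40 ± 0.05), ATP5PF (-0.49 ± 0.06) and ATP5F1C, an ATP synthase subunit (-0.45 ± 0.06), had the smallest p. All 76 abundant ribosomal protein rows were called lower too (median -0.45), 18 of 32 very long transcripts were called higher and 1 lower, and among markers 6 of 9 for intestine, 5 of 8 for exocrine pancreas and 6 of 14 for slow muscle and heart were called lower (1 higher in each of the last 2 lists), while 4 of 9 for neurons were called higher. With library totals only, a scaling that moved the median of all rows by 0.17, 35 of 71 were called lower and 2 higher. The share of all rows called with that scaling is not given here. By feeding group, 56 of 71 were called lower in high DHA (median -0.36; all rows 1367 higher and 1473 lower, median 0.01) and 53 in low DHA (median -0.36; all rows 1940 higher and 1179 lower, median 0.06), and 0 higher in either. Abundant ribosomal protein rows were called lower there as well, 70 of 76 in high DHA and 73 of 76 in low DHA. In low DHA 22 of 32 very long transcripts and all 9 neuron markers were called higher (neuron sums 642 to 747 CPM at 15 dph and 334 to 574 CPM at 10 dph), as were 4 of 6 liver markers with 1 lower, and 4 of 14 slow muscle and heart markers were called lower with 2 higher. In high DHA 6 of 9 intestine markers (2181 to 2432 CPM at 15 dph and 2894 to 3479 CPM at 10 dph), 5 of 14 slow muscle and heart, 3 of 7 fast muscle, 2 of 6 liver and 3 of 8 exocrine pancreas markers were called lower, the last with 1 higher, and very long transcripts had 7 of 32 called higher and 3 lower. The part of these lists in the result was not tested. At 15 dph, high against medium DHA had 1 of 71 nuclear rows called higher and 25 lower (median -0.28; all rows 572 higher and 662 lower, median -0.01), beside 20 of 76 ribosomal protein rows called lower. In that comparison 4 of 6 liver markers were called lower (median -0.49; 17182 to 21896 CPM in high DHA and 25304.5 to 26918 CPM in medium DHA), as were 4 of 9 intestine markers (median -0.40; 2181 to 2432 CPM in high DHA and 3013.5 to 3312 CPM in medium DHA), 2 of 7 fast muscle markers and 3 of 14 slow muscle and heart markers, the last with 2 higher. Their part in the result was not tested.

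**Figure D4:**
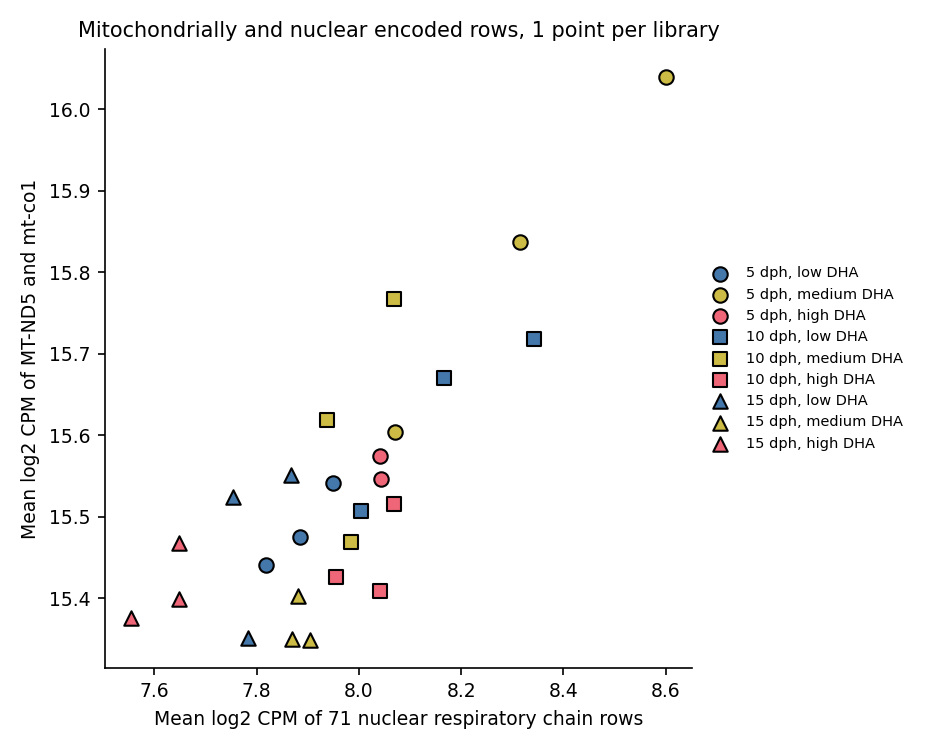
Mean log2 CPM of MT-ND5 and mt-co1 against the mean log2 CPM of 71 nuclear encoded respiratory chain rows, 1 point per library, with symbols for age and colours for DHA level. Both axes share library and scaling; replicate 2 of medium DHA at 5 dph is highest on both.

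Summed counts of the mitochondrially encoded rows over those of the nuclear list gave a ratio that also needs no scaling. At 5 dph it was 3.58 to 3.72 in all 8 libraries. At 10 dph it was 3.27 to 3.47 with low DHA, 3.40 to 4.06 with medium DHA and 3.12 to 3.38 with high DHA. At 15 dph it was 3.67 to 4.25 with low DHA, 3.34 to 3.63 with medium DHA and 4.203 to 4.36 with high DHA. At 5 dph the feeding groups were thus within a narrow band, and at 15 dph every high DHA library was above every medium DHA library. Across the 26 libraries the mean log2 CPM of both rows had a Pearson correlation of 0.825 with that of the nuclear list, 0.802 with that of the ribosomal protein rows and -0.748 with the log2 scaling factor. MT-ND5 and mt-co1 had a correlation of 0.757 with each other. These libraries share their scaling, so the values describe the libraries only.

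Genes that act on mitochondrial DNA and its messengers were looked at beside them; their roles are known mainly from mammals. In medium against low DHA at 5 dph, 3 of 11 genes of mitochondrial DNA maintenance and transcription were called higher, among them TFB2M, a transcription initiation factor (0.30 ± 0.10), with a list median of 0.23. For RNA processing and stability 5 of 14 were called higher (ELAC2, which cuts tRNA ends, 0.41 ± 0.12), and for mitochondrial translation 48 of 58 (MRPL32 0.59 ± 0.10, median 0.41). Assembly factors of the chain had 9 of 23 called higher, led by the copper carrier COX17 (0.67 ± 0.14). Regulators of mitochondrial biogenesis had 0 of 8 called higher and 3 lower. These were the nuclear receptors Esrrg (-0.49 ± 0.13) and PPARA (-0.33 ± 0.10) and the coactivator PPARGC1B (-0.31 ± 0.12). Of all 7292 rows tested, 1220 were called higher and 760 lower here (median 0.04). Without replicate 2 of medium DHA, and also with the length score in the fit, 0 rows of each of these 5 lists were called. The same held for the 76 abundant ribosomal protein rows, with 0 called in either fit, though the length score is itself made from those rows.

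Around the lower mt-co1 of medium DHA larvae at 15 against 10 dph, 3 of 11 maintenance and transcription genes were called higher and 3 lower, where 1256 of all 7292 rows were called higher and 1135 lower. MTERF2, of the mitochondrial transcription termination factor family, fell by 1.07 ± 0.18 on the log2 scale to 47.1 CPM at 15 dph, against 99.2 CPM at 10 dph. Polrmt, the mitochondrial RNA polymerase, rose by 0.39 ± 0.13 on that scale. MGME1 (0.41 ± 0.13) and primpol (0.33 ± 0.11) were also called higher, and POLG2 (-0.35 ± 0.12) and the initiation factor TFB2M (-0.29 ± 0.10) lower. POLG2 and TFB2M were named after their values were seen. Of 58 mitochondrial translation rows 2 were called higher and 0 lower. Of 14 genes for RNA processing and stability 3 were called higher and 1 lower. REXO2, an exonuclease that degrades short mitochondrial RNAs, rose by 0.81 ± 0.14, and lrpprc, which binds and stabilises mitochondrial messengers, rose by 0.29 ± 0.09, both on the log2 scale, while ptcd3 stood at 0.26 ± 0.09 and PTCD1, the row called lower, at -0.35 ± 0.13. Among 23 assembly factors 2 were called higher and 3 lower. The complex IV factors surf1 (-0.51 ± 0.11) and sco2 (-0.51 ± 0.15) and the complex I factor NDUFAF3 (-0.40 ± 0.13) were called lower, and timmdc1 (0.47 ± 0.10) and ecsit (0.24 ± 0.08), both of complex I, higher; ecsit was named after its value was seen. The coactivator PPARGC1B was called lower (-0.59 ± 0.12) and the transcription factor nrf1 higher (0.29 ± 0.10).

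Rows whose pattern was most like the members were ranked by Pearson's correlation of log2 CPM with the mean of MT-ND5 and mt-co1 over the 26 libraries, among 4724 rows of at least 20 CPM. The 8 highest were eif3ea (0.954), eif3m (0.934), NDUFS4 (0.928), eif3l (0.923), eif3i (0.922), Ephx1 (0.92), SDHAF4 (0.914) and FBP1 (0.898). Those with eif3 in their names are subunits of a translation initiation factor, NDUFS4 is a nuclear encoded complex I subunit, and SDHAF4 is an assembly factor of complex II. Ephx1 is an epoxide hydrolase and FBP1 an enzyme of gluconeogenesis. The 3 lowest were Baz1a (-0.89), znf687b (-0.876) and PIK3C2B (-0.874). All of these values share the libraries and their scaling and carry no test.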

How the data were processed

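Whole-larva RNA was sequenced from TruSeq libraries, per the labels' protocols. The authors deposited a table of raw counts per gene name; the submitters' processing notes name DESeq2 with no version. Not given in the sources used here: the aligner, counter, assembly, strand setting and what was summed. Therefore reads shared with nuclear copies of mitochondrial sequence or with overlapping genes cannot be told apart. The 4 internal control samples were not analysed here.

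The fits used edgeR 4.0.16 under R 4.3.3, with filterByExpr (3 rows removed), TMM scaling, 1 mean per group, robust quasi-likelihood F-test. DESeq2 1.42.0 was an alternative. The members, lists and comparisons were chosen with earlier results of these data known; the medium against low DHA difference between 5 and 10 dph was added after the data were seen. Named genes are both members, up to 4 genes per list with the smallest p, and the rows most and least correlated with the members. The fit was tested on simulated data with 50 rows changed at each fold size. Of 1.25-fold changes, nearer to those of the members, 6% were found for medium over low DHA at 5 dph (7288 genes). For high over low DHA at 10 dph 10% were found (7289 genes), and for 15 over 10 dph averaged 56% (7290 genes). Of 1.5-fold changes 68%, 74% and 92% were found. In the data 27.2%, 23.8% and 57.7% of all rows were called in these comparisons, far more than were changed in the simulation. The found shares therefore do not give the power for the members. Same-numbered libraries deviated together, with each of 3 correlations over 0.1, in high DHA at 15 and 10 dph (0.152 to 0.302) and in medium and low DHA at 15 dph (0.107 to 0.162). In high DHA the correlations of 5 dph with 10 dph (0.178 and 0.172) and with 15 dph (0.103 and 0.199) were over 0.1 too. No label ties a number to a tank or day. No 2 replicates of a group agreed within counting error (25 pairs).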

Additional observations from a re-analysis of the deposited data

Results flagged for a closer look

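The change of MT-ND5 from 5 to 10 dph differed between medium and low DHA larvae in a test of the difference itself. It was -0.57 ± 0.15 on the log2 scale (adjusted p = 0.00376, edgeR). That test was added after the data were seen, so its p-value is not independent of the values that prompted it. MT-ND5 was lower at 10 than at 5 dph in medium DHA and higher in low DHA, and TMM-scaled libraries of the 2 ages did not overlap in either. As a share of all counts, the low DHA libraries of the 2 ages overlapped, at 5.40% ± 0.21 at 10 dph and 5.30% ± 0.16 at 5 dph. In the test of the difference, 67 of 71 rows of the nuclear respiratory chain list were called lower, with a median of -0.65. Of all rows 20.5% were called lower and 43.3% in either direction, with a median of -0.096. The length score was -5.32 ± 0.21 at 10 dph and -5.92 ± 0.43 at 5 dph in medium DHA, against -6.46 ± 0.68 and -4.79 ± 0.17 in low DHA. With library totals only, the difference for MT-ND5 was -0.22 (adjusted p = 0.0765, edgeR), or -0.46 against the median of all rows. With the length score as a covariate the difference was -0.05, in a fit that cannot decide between the score and the groups where their libraries do not overlap in it.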

How the results depend on the processing

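Counts are of called members out of 2. The shares of all rows called in the same fits are not given here, so the counts do not show whether a member stood out. DESeq2 called 1 for high over medium DHA at 5 dph and 1 for high over low DHA at 10 dph. With RLE size factors 1 was called for medium over low DHA at 5 dph and 0 for 10 over 5 dph in low DHA. With the compared groups only, 0 were called for medium over low DHA at 5 dph and for 10 over 5 dph in medium and in low DHA. With rows of at least 20 CPM, 1 was called for medium over low DHA at 5 dph and 1 for high over low DHA at 10 dph, and MT-ND5 stood at -0.0027 for high over medium DHA at 15 dph. The cause was not tested.

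Replicate numbers did not pair the samples throughout: of 25 pairs of libraries with the same number and age, 12 had deviations from group means correlated above 0.1 (median 0.0625), and of 25 with the same number and DHA level, 11 (median 0.0812). Among 50 same-numbered pairs that differed in both age and DHA level, 14 were above 0.1 (median 0.0191). The replicate block, also with the 5 dph high DHA library numbered as its treatment label has it, called the same members, also in the 2 comparisons in which all 3 pairs deviated together, 15 over 10 dph in high DHA and medium over low DHA at 15 dph, where 0 were called. A replicate block by tank called 0 for 10 over 5 dph in low DHA (MT-ND5 0.26, adjusted p = 0.0583).

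With library totals only, 0 were called for medium over low DHA at 5 dph, for 15 over 10 dph averaged and for the difference between medium and low DHA from 5 to 10 dph; 1 was called for medium over low DHA at 10 dph and for 10 over 5 dph in high DHA, and 2 for 10 over 5 dph averaged and for 15 over 10 dph in high DHA. That scaling moved the median of all rows by -0.23 for medium over low DHA at 5 dph and 0.23 for 15 over 10 dph in high DHA. Set against the median of all rows, changes differed from those under TMM by at most 0.018 for MT-ND5 and 0.019 for mt-co1 over 21 comparisons. This closeness follows from the arithmetic, since a scaling shifts all rows nearly alike. It does not show that a change is independent of the scaling. Taken that way, signs were the same in 21 comparisons for MT-ND5 and in 20 for mt-co1. The exception was mt-co1 for 10 over 5 dph in low DHA, at 0.00096 with TMM and -0.0022 with library totals. The signs below are those of changes not set against that median. For 10 over 5 dph in low DHA the called member was mt-co1, lower (adjusted p = 0.0161), and not MT-ND5 (0.027). Signs turned for mt-co1 in high over low DHA at 15 dph (0.068) and averaged (0.025), in 10 over 5 dph in medium (0.0072) and low DHA (-0.19), in 15 over 10 dph in high (0.16) and low DHA (0.055), and in the medium minus low difference from 5 to 10 dph (0.20). They turned for MT-ND5 in 15 over 10 dph averaged (0.082), in high (0.22) and in low DHA (0.054).

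With the length score as a covariate, 0 were called for medium over low DHA at 5 dph, for 10 over 5 dph in medium and in low DHA, for 15 over 10 dph averaged and for the medium minus low difference; 1 was called for medium over low and for high over medium DHA at 10 dph, and 2 for 10 over 5 dph averaged. MT-ND5 turned in high over low DHA at 5 dph (-0.033), medium over low at 10 dph (0.076), 10 over 5 dph in low DHA (-0.12), 15 over 10 dph averaged (0.059), in high (0.12) and low DHA (0.16), and the high over low difference from 10 to 15 dph (-0.039). mt-co1 turned in high over low DHA at 5 dph (-0.037), 10 dph (0.099) and averaged (0.019), in 10 over 5 dph in medium (0.028) and low DHA (-0.34), in 15 over 10 dph in high (0.058) and low DHA (0.16), and in the differences of high over low from 5 to 10 dph (0.14) and 10 to 15 dph (-0.10) and of medium over low from 5 to 10 dph (0.37). This fit cannot decide between the score and the groups where their libraries do not overlap in it. That holds for medium and low DHA at 10 dph and for 10 and 15 dph in high and in low DHA, among others.

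Without both libraries of lowest scaling factor, 0 were called for medium over low DHA at 5 dph and for 10 over 5 dph in medium and low DHA; mt-co1 stood at 0.028 for 10 over 5 dph in medium DHA and 0.021 for the medium minus low difference. Without replicates 1 and 2 of medium DHA at 5 dph, chosen after seeing the data as were library totals and the 20 CPM rows, 0 were called for medium over low DHA at 5 dph, 10 over 5 dph in medium DHA and the medium minus low difference, and 1 for high over low and medium over low DHA at 10 dph and for 15 over 10 dph in low DHA. There mt-co1 stood at 0.019 for high over medium DHA at 5 dph, 0.034 for 10 over 5 dph averaged, 0.15 in medium DHA and 0.054 for the medium minus low difference, and MT-ND5 at 0.052 for 10 over 5 dph averaged.

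Leaving out 1 library at a time, counts ran from 0 to 1 for 10 over 5 dph in low and in medium DHA and high over low DHA at 10 dph, and from 0 to 2 for high over medium and medium over low DHA at 5 dph. MT-ND5 ran from -0.076 to 0.013 for 10 over 5 dph averaged, -0.036 to 0.051 for 15 over 10 dph in high DHA and -0.013 to 0.063 for high over medium DHA at 15 dph. mt-co1 ran from -0.23 to 0.013 for 10 over 5 dph in medium DHA and -0.053 to 0.0069 for high over low DHA at 15 dph.

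As a ratio to all counts outside the members and the ribosomal protein rows under 20 CPM, the members' share at 5, 10 and 15 dph was 10.8%, 10.3% and 10.7% with low DHA, 11.8%, 10.96% and 9.64% with medium DHA, and 11.2%, 9.39% and 10.9% with high DHA. Of the counts of called members under the other alternatives, 34 moved and 248 did not. Both rows have the highest counts of the table, so the spread between 2 or 3 libraries per group, and not counting depth, sets the precision.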
